A study of Nannochloropsis oceanica strain IMET1 with 6 samples.

Results

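Counted over the 3 groups together, among all chromosome pairs of Nannochloropsis oceanica IMET1, a single-celled marine alga that stores oil when nitrogen runs out, the pairs formed by chromosomes 3, 9 and 15 held the most trans-interactions, meaning listed contacts between bins on different chromosomes. The members described here are the listed pairs of 1-kb bins that join any of these 3 chromosomes, 536 of 2203 trans-interactions in all. Pairs with both bins within 20 kb of a chromosome end were left out. The 3 chromosomes were picked for the number of interactions they share, so that number is given as a description and supports nothing else.

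Hi-C libraries were made from IMET1 cells grown in nitrogen-replete f/2 medium under continuous light (NR, C0). Others came from cells moved to f/2 medium without nitrogen (nitrogen deprivation, ND) for 1 day (N1) and 2 days (N2). By the paper's methods, the moved cells were first rinsed and then kept under weaker continuous light. Light and handling thus changed along with nitrogen, and their parts cannot be told apart. Each group had 2 replicates, which gave 6 libraries. The authors pooled both replicates before calling interactions, so a group is represented by 1 list. Groups were not tested against each other, and the spread between cultures is unknown. Counts are given with exact Poisson 95% intervals and shares with exact binomial ones, and both describe counting error alone. They treat bin pairs as independent, although many pairs share a bin, so they are likely too narrow.

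Hi-C joins pieces of DNA that lay close together in the nucleus and counts how often each pair of loci was joined. Chromosomes tend to keep to their own territories, so a contact between 2 given bins of different chromosomes is rare, and regions of different chromosomes that repeatedly come close stand out as clusters of such contacts. In yeasts, for example, centromeres gather with centromeres and telomeres with telomeres. Loci with unusually high or low read coverage distort such counts, and each bin therefore carries a bias factor, where 1 is an average bin. A value of -1 marks a bin with no usable factor. Listed trans pairs of 2 such bins had the expected count of a pair of average bins. No trans list joined such a bin to a usable one, so how a mixed pair was handled is not known. The nuclear annotation and sequence of this genome were not used here, so no gene, centromere or repeat is named.

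The C0 list held 175 interactions among chromosomes 3, 9 and 15 (95% interval 150.0 to 203), the N1 list 3 (0.619 to 8.77) and the N2 list 358 (322 to 397). The C0 list named 1.27e-04% of all possible trans bin pairs of the genome, the N1 list 2.12e-05% and the N2 list 3.29e-04%, and since the chromosomes were chosen by these same lists nothing is read from the difference. Among the 5097606 possible bin pairs of the 3 chromosomes, the lists of C0, N1 and N2 named 0.00343%, 5.89e-05% and 0.00702%. The remaining trans bin pairs were listed at 8.98e-05%, 2.08e-05% and 2.54e-04%. Pairs among the 3 chromosomes gave 29.8% of the C0 trans list (26.1% to 33.7%), 3.06% of the N1 list (0.636% to 8.69%) and 23.6% of the N2 list (21.5% to 25.8%). The base for these shares is the possible trans bin pairs, 5097606 of 461817352. The 3 chromosomes make up 12.8% of the 31.0 Mb covered by the 30 chromosomes, but a share of length is not comparable with a share of bin pairs.

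All 3 chromosome pairs took part, unevenly. Chromosomes 3 and 15 shared the most, with 92 interactions in NR cells, 1 after 1 day of ND and 149 after 2 days. For chromosomes 9 and 15 these numbers were 63, 2 and 125. Between chromosomes 3 and 9 the C0 list had 20 and the N2 list 84, with none in the N1 list. No chromosome pair outside these reached more than 6 interactions at C0, 3 at N1 or 15 at N2, and no set of 3 chromosomes with at most 1 of them held more than 13, 5 or 42.

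The limit at the chromosome ends touched few pairs. At N2 it left out a pair at 15.5 and 13.5 kb from ends of chromosomes 9 and 15, with 5 contacts. At C0 it left out a pair at 0.5 kb from an end of chromosome 3 and 4.5 kb from an end of chromosome 9, with 7 contacts, and a pair at 15.5 and 14.5 kb from ends of chromosomes 3 and 15, with 4 contacts. Just inside the limit, 4 pairs at N2 with 4 contacts each had 1 bin near an end and the other at 21.5, 25.5, 25.5 or 43.5 kb. At C0 the farther bin of every pair kept lay at least 310.5 kb from an end.

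Depth differed between the groups and bears on every number of interactions. The expected count of an average trans bin pair was 0.0426 contacts in the C0 data, 0.0137 in the N1 data and 0.0293 in the N2 data, so that C0 stood at 3.12 times and N2 at 2.14 times the N1 value. An average pair needed 5 contacts to be listed at C0, and 4 at N1 and N2. To come to 4 contacts after scaling to the depth of N1, a pair needed 9 contacts at N2 or 13 at C0. There were 18 such pairs at N2, 17 of them without a usable factor, and 3 at C0, all without one. None of them was listed at N1. No absence from the N1 list is read as a loss here. Most other interactions of C0 and N2 had too few contacts for that. The pairs that reached the bar nearly all lacked a factor, while all 3 interactions listed at N1 had usable ones. An unlisted pair may still have had contacts.

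On each chromosome the interactions gathered in 1 stretch. The densest 200-kb window of chromosome 3, placed on C0 and N2 together, was chr3:949001-1149000, centred at 63.0% of the chromosome. It covers 12.0% of the chromosome and held 166 of 233 bin ends on chromosome 3 at N2 (71.2%, 65.0% to 77.0%) and 103 of 112 at C0 (92.0%, 85.3% to 96.3%). On chromosome 9 the window was chr9:311001-511000, centred at 31.9% of the length. It covers 15.5% of the chromosome and held 150 of 209 bin ends at N2 (71.8%, 65.2% to 77.8%) and 72 of 83 at C0 (86.7%, 77.5% to 93.2%). On chromosome 15 it was chr15:422001-622000, centred at 52.3%, which covers 20.02% of the chromosome and held 212 of 274 bin ends at N2 (77.4%, 72.0% to 82.2%) and 126 of 155 at C0 (81.3%, 74.3% to 87.1%). Placed on each group alone, the windows of N2 and C0 started 1 kb apart on chromosome 3 and 5 kb apart on chromosome 9, and on chromosome 15 lay at chr15:422001-622000 at N2 and chr15:432001-632000 at C0.

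**Figure D1:**
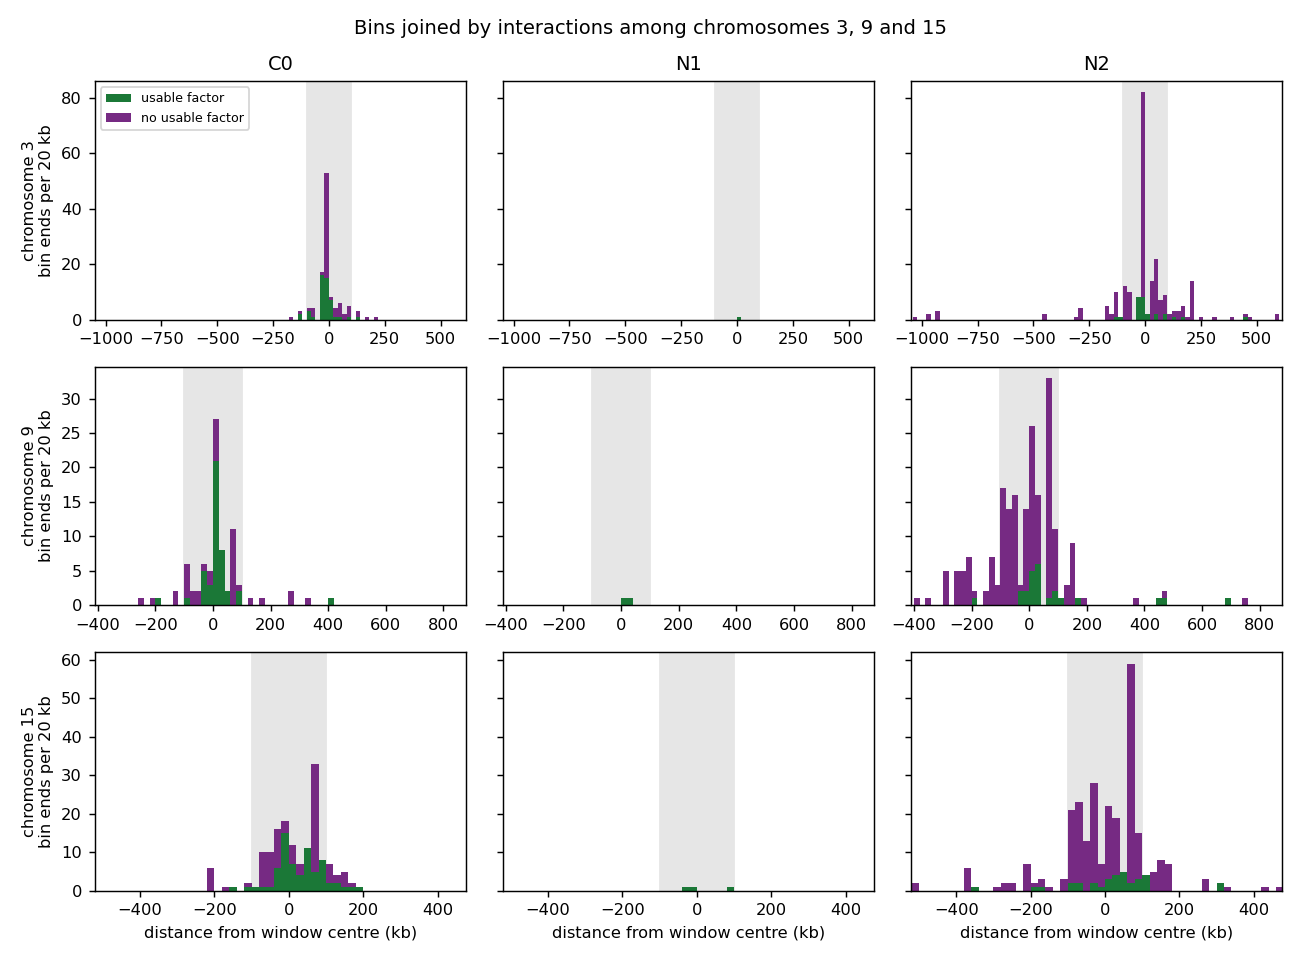
Number of bin ends of interactions among the 3 chromosomes per 20 kb (vertical axes, which differ between chromosomes), against the distance from the centre of each 200-kb window in kb (horizontal axes), with 1 row per chromosome and 1 column per group. The grey band is the window, green bars are bins with a usable factor and purple bars bins without one. The peaks of C0 and N2 lie inside the same bands, the purple bars are higher at N2, and N1 has only 6 bin ends.

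Both bins lay inside the windows in 215 of 358 interactions at N2 (60.1%, 54.8% to 65.2%) and in 134 of 175 at C0 (76.6%, 69.6% to 82.6%). All 3 interactions of N1 also joined 2 windows, which had been placed without them. Of the 120000 bin pairs between the windows, the lists of C0, N1 and N2 named 0.112%, 0.0025% and 0.179%. Outside the windows the N2 bins reached along most of each chromosome, spanning 1617 kb on chromosome 3, 1143 kb on chromosome 9 and 989 kb on chromosome 15, while those of C0 spanned 383, 677 and 395 kb. The gap between neighbouring bins of a chromosome had a median of 7, 8 and 7 kb at N2, and of 5, 6 and 3 kb at C0.

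Inside the windows, the relation between the position of a bin and that of its partner is given as a description. Over the pairs with both bins in windows, Pearson's r between the 2 positions was -0.16 to 0.24 in the 3 chromosome pairs of C0 and N2, over 17 to 94 pairs that share bins. With usable factors only, r was 0.77 for chromosomes 3 and 9 at C0, over 12 pairs and with a Spearman rho of 0.13, and between -0.34 and 0.33 in the other chromosome pairs for which it was computed. Pairs without a factor lay on rows and columns that belong to single bins.

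**Figure D2:**
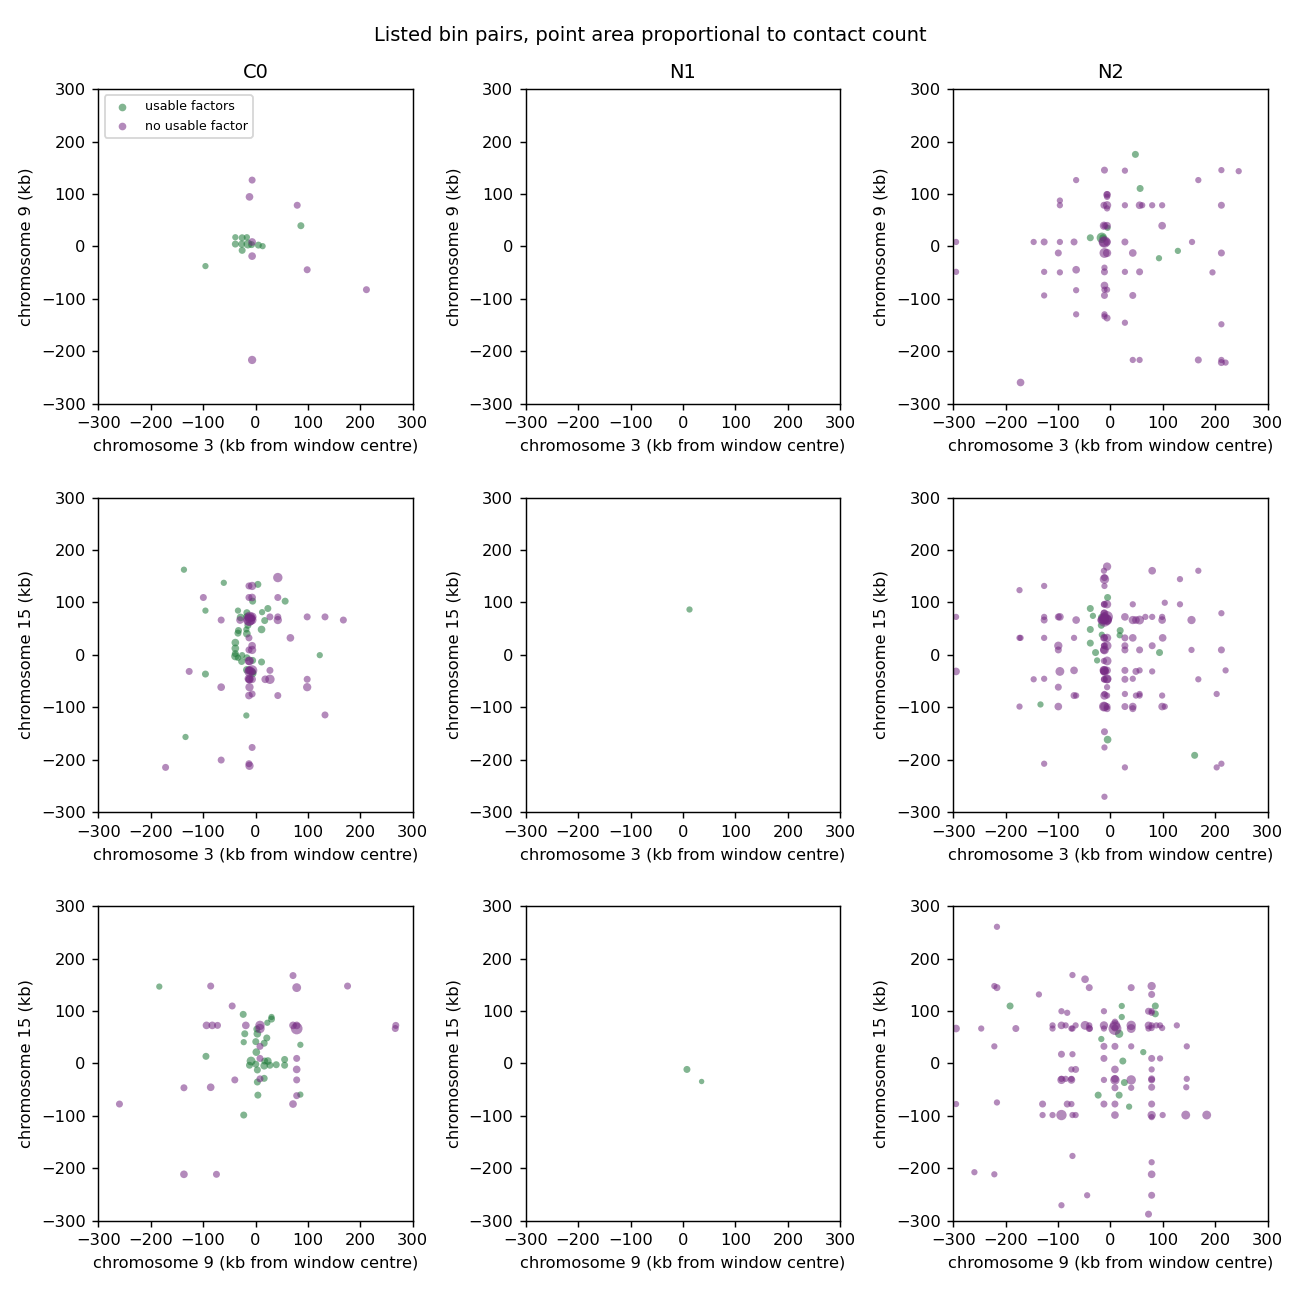
Each point is a listed bin pair, placed by the distance of its 2 bins from their window centres (both axes in kb), with rows for the 3 chromosome pairs and columns for C0, N1 and N2, and with its area proportional to the contact count. Green points have usable factors and purple points do not. Purple points at N2 fall on shared rows and columns, while green points gather near the centres, and pairs more than 300 kb from a centre are not drawn.

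Most interactions at N2 joined bins without a usable factor. Both bins had a usable factor in 80 of 175 interactions at C0 (45.7%, 38.2% to 53.4%), in all 3 at N1 and in 42 of 358 at N2 (11.7%, 8.59% to 15.5%). In the whole trans lists, with 587 pairs at C0, 98 at N1 and 1518 at N2, no pair joined a usable bin to one without a factor. Bins of each class were thus listed only with bins of the same class. Whether a mixed pair could be listed at all was not tested. The order of C0 and N2 turned with the class of bins counted. Usable pairs numbered 42 at N2 and 80 at C0, and pairs without a factor 316 at N2 and 95 at C0. In the other trans-interactions the usable share was 74.9% for C0 (70.4% to 79.0%), 94.7% for N1 and 18.5% for N2 (16.3% to 20.8%). In N2 and C0 the interactions among the 3 chromosomes thus had a lower usable share than the rest of the trans list. The intervals do not overlap, but they treat pairs that share bins as independent, so this is a description and no test. The difference in number between the groups cannot be told apart from the difference in which bins had a factor.

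The bins with a usable factor were above average. With a bin counted once for each of its interactions, their median factors in C0, N1 and N2 were 1.25, 1.19 and 1.499. In the other trans-interactions these medians were 1.08, 0.922 and 0.990. With each bin counted once, which is another measure, the 58 bins that had a factor in both N2 and C0 had medians of 1.24 at N2 and 1.27 at C0. The N2 value was higher in 33 of them.

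A bin could hold a factor in 1 group and none in another. Of the 128 bins without a factor at N2, 54 had none at C0 either, 12 had a usable factor there and 62 were in no list of C0. Of the 63 bins without a factor at C0, 51 had none at N2, 8 had a usable factor at N2 and 4 were in no N2 list. At N1, 15 of the 128 bins and 8 of the 63 carried a usable factor. For example, chr15:423001-424000 had a factor of 1.83 at C0 with 1 partner, 1.17 at N1 with none, and no factor at N2 with 19 partners.

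Contact counts were low in every group. At C0 they ran from 4 to 14 with a median of 5, at N1 they were 3, 4 and 5, and at N2 they ran from 4 to 18 with a median of 5. At N2, 163 of the 316 pairs without a factor had exactly 4 contacts, which is the lowest count that could list them. At C0 no pair without a factor had under 5 contacts. Usable pairs reached 11 contacts at N2 and 8 at C0.

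**Figure D3:**
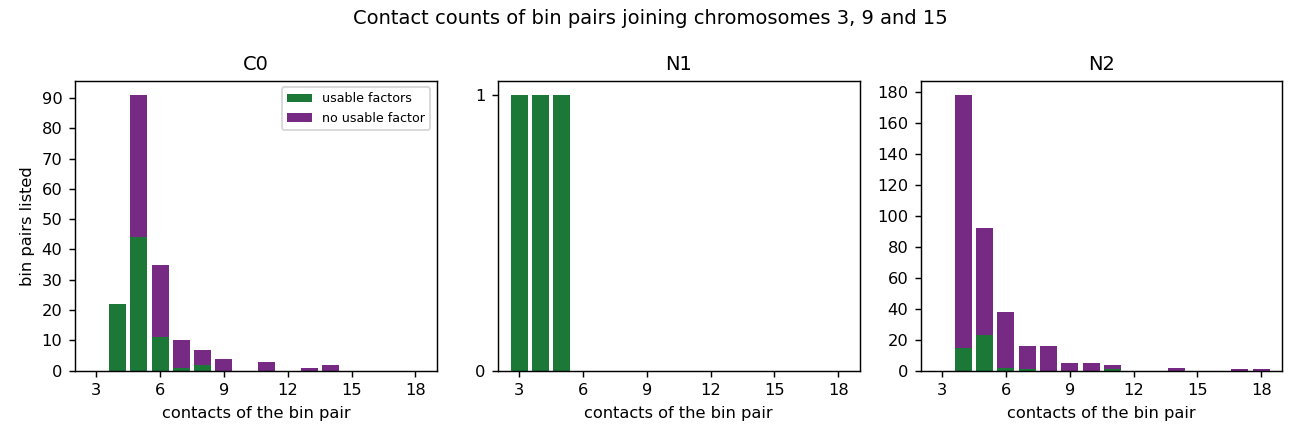
Number of listed bin pairs (vertical axes, which differ between groups) by contacts of the bin pair (horizontal axes), for C0, N1 and N2, with usable pairs in green and pairs without a factor in purple. Most pairs at N2 and at C0 had 4 or 5 contacts, and the counts of 9 and more at C0 belong only to pairs without a factor.

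Only pairs past the bar for listing are in the lists, so their ratios of observed to expected contacts were high by construction. The median ratio of usable pairs was 101 at N2 (95% interval 86.0 to 119) and 83.2 at C0 (72.3 to 99.5), and that of pairs without a factor was 137 at N2 and 141 at C0. For pairs without a factor the expected count is that of average bins. Their ratios, here and below, carry no correction for the coverage of the bins and are not comparable with those of usable pairs. Over all interactions the medians were 137 at N2 and 117 at C0, the same values as in the other trans-interactions of those groups. A shallower list requires a larger ratio, so the higher median of usable pairs at N2 does not show stronger contacts.

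The highest counts recurred on a few bins. At N2 the leading pair was chr3:1037001-1038000 with chr15:588001-589000, at 18 contacts, and it had 13 at C0. This was 615 times the expected count at N2 (365 to 972) and 305 times at C0 (162 to 522), so the intervals overlap. Neither bin had a factor, so these ratios carry no correction for the coverage of the bins. The second pair at N2 was chr9:419001-420000 with the same bin of chromosome 15, with 17 contacts at N2 and 9 at C0, or 581 and 211 times the expected count. Next were chr3:1037001-1038000 with chr9:419001-420000, which had 14 contacts at N2 and was not listed at C0, and chr3:1042001-1043000 with chr15:594001-595000, which had 14 at N2 and 8 at C0. The first 3 of these pairs join the same 3 bins, 1 on each chromosome.

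Of the 4 pairs with 11 contacts at N2, a single one had usable factors. It joined chr3:1032001-1033000 and chr9:427001-428000, with factors of 1.499 and 1.684, at 149 times the expected count (74.3 to 266), and was not listed at C0. The pairs without a factor were chr3:1036001-1037000 with chr15:589001-590000, with 6 contacts at C0, chr9:419001-420000 with chr15:594001-595000, with 9 at C0, and chr9:317001-318000 with chr15:423001-424000, not listed at C0.

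At C0 the highest count was 14, reached by chr3:1036001-1037000 and by chr9:489001-490000, each with chr15:588001-589000. The first pair had 8 contacts at N2 and the second was not listed there. Counts of 11 at C0 belonged to chr3:1037001-1038000 with chr15:490001-491000, which had 8 at N2, to the same bin with chr15:594001-595000, which had 9 at N2, and to chr3:1042001-1043000 with chr15:492001-493000, which had 6 at N2. The leading usable pairs of C0 had 8 contacts. They were chr3:1034001-1035000 with chr9:415001-416000, at 117 times the expected count, and chr9:402001-403000 with chr15:526001-527000, at 52.6 times.

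The 3 interactions of N1 all had usable factors, like 42 interactions of N2, with 4 to 11 contacts, and 80 of C0, with 4 to 8. The bins chr9:418001-419000 and chr15:510001-511000 shared 5 contacts, 110 times the expected count (35.6 to 256). The bins chr3:1059001-1060000 and chr15:610001-611000 shared 4, at 239 times (65.1 to 611), and chr9:446001-447000 and chr15:487001-488000 shared 3, at 658 times (136 to 1924). None of these pairs was listed at C0 or N2. The nearest interaction of N2 lay 1, 17 and 4 kb away, taking the larger of the offsets of the 2 bins, and the nearest of C0 lay 4, 7 and 19 kb away.

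A few bins took part in many of the interactions. The 5 bins with the most partners at N2 and the 5 at C0 come to 6 different bins, 3 on chromosome 3, 1 on chromosome 9 and 2 on chromosome 15. They took part in 139 of 358 interactions at N2 (38.8%, 33.8% to 44.1%) and in 64 of 175 at C0 (36.6%, 29.4% to 44.2%). These bins were picked for their partners in the same lists, so both shares were high by choice and are a description only. The bin chr3:1037001-1038000 had 31 partners at N2 and 9 at C0, and summed 200 contacts at N2 and 76 at C0. Its neighbour chr3:1036001-1037000 had 16 partners at N2 and 13 at C0, and chr3:1042001-1043000 had 26 at N2 and 16 at C0. These 3 bins lie within 7 kb of each other.

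On chromosome 9, chr9:489001-490000 had 27 partners at N2 and 8 at C0. On chromosome 15, chr15:594001-595000 had 24 at N2 and 16 at C0, and chr15:588001-589000 had 23 at N2 and 10 at C0. All 6 bins lacked a usable factor in both N2 and C0, and 5 of them were in no N1 list, while chr3:1036001-1037000 had a factor of 1.22 at N1 with 1 cis partner. Pairs without a factor needed 5 contacts to be listed at C0 and 4 at N2. The partner numbers of these bins at N2 and C0 are thus not at an equal count. At an equal count the order of N2 and C0 could differ for a bin, and the difference is not read as a gain. Of the 11 possible pairs between leading bins on different chromosomes, 8 were listed at N2 and 8 at C0. The pair of the bins with the most partners on chromosomes 3 and 9, chr3:1037001-1038000 and chr9:489001-490000, was listed in neither.

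**Figure D4:**
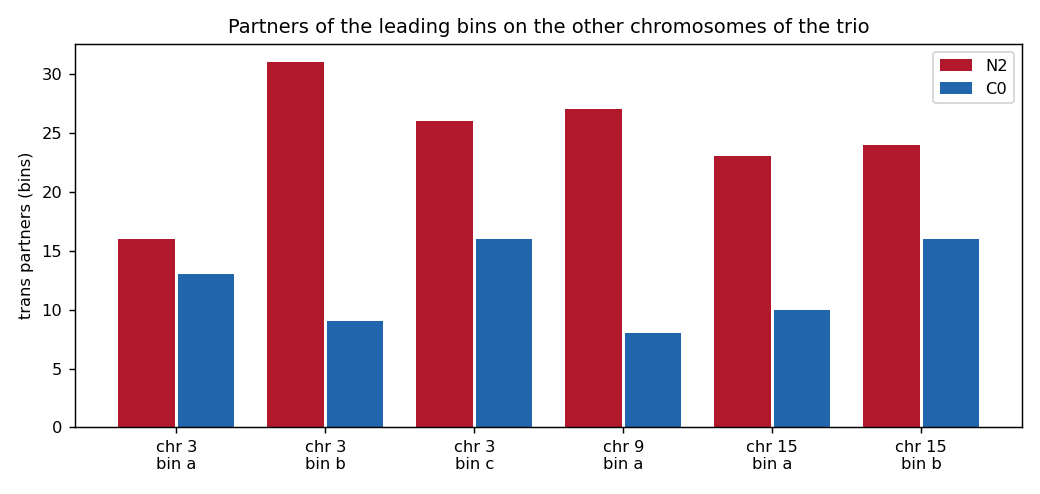
Number of partner bins on the other 2 chromosomes (vertical axis, from 0) of the 6 leading bins, with N2 in red and C0 in blue. From left to right the bins are those of chromosome 3 starting at 1036001, 1037001 and 1042001, of chromosome 9 at 489001, and of chromosome 15 at 588001 and 594001. Each red bar is higher than its blue one, by 3 partners at the least and 22 at the most. The red bars include pairs with 4 contacts, while the pairs behind the blue bars needed 5, so the bars are not at an equal count.

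Bins with usable factors, which were listed only with each other, had fewer partners. Among bins with a factor in both groups, the one with the most, chr3:1010001-1011000, had 5 partners at N2 with a factor of 1.81 and 6 at C0 with a factor of 1.62. The next, chr9:427001-428000, had 5 at N2 with a factor of 1.68 and 4 at C0 with a factor of 1.73. Over all bins, the median number of partners was 2 at N2 and 1 at C0, and 18 bins at N2 and 4 at C0 had 10 or more. Pairs without a factor entered these numbers from 4 contacts at N2 and from 5 at C0.

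Many bins joined both of the other chromosomes. At N2, 85 of 187 bins had partners on both (45.5%, 38.2% to 52.9%), and at C0 46 of 160 (28.8%, 21.9% to 36.4%), with none of 6 at N1. Of these, 74 of the 85 at N2 and 22 of the 46 at C0 lacked a usable factor. A closed triple is 1 bin on each chromosome with all 3 bin pairs listed. Pooled pair counts do not show that the 3 bins met in the same cell. The C0 list formed 5 closed triples, the N1 list none and the N2 list 141, and N2 and C0 had 3 in common. None had usable factors, and with no mixed pairs listed, all lay among bins without one. The triples of N2 used 52 bins and 179 of the 358 interactions (50.0%, 44.7% to 55.3%), and those of C0 used 7 bins and 11 of the 175 (6.29%, 3.18% to 11.0%).

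At N2 the leading closed triple was chr3:1037001-1038000, chr9:419001-420000 and chr15:588001-589000, with 14, 18 and 17 contacts in the chromosome pairs 3 and 9, 3 and 15, and 9 and 15. Their sum was 49, against 23 for the leading triple of C0. Next at N2 came chr3:1036001-1037000 with the same bins of chromosomes 9 and 15, at 10, 8 and 17 contacts, and chr3:1037001-1038000 with chr9:419001-420000 and chr15:594001-595000, at 14, 9 and 11 contacts. At C0 all 5 closed triples contained chr3:1042001-1043000. The leading 2 joined it to chr9:419001-420000 and to either chr15:588001-589000 or chr15:594001-595000, each with 6, 8 and 9 contacts in the same order. The next joined the same bins of chromosomes 3 and 9 to chr15:492001-493000, with 6, 11 and 5 contacts. The bin chr9:419001-420000 was in 44 closed triples at N2, the most of any bin, and in 4 of the 5 at C0.

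The comparison was narrowed to the same bins, an alternative chosen after seeing the data. There were 57 bins listed without a usable factor in both N2 and C0, 18 on chromosome 3, 16 on chromosome 9 and 23 on chromosome 15. Of the 1070 bin pairs they can form, 143 were listed at N2 (13.4%, 11.4% to 15.6%) and 77 at C0 (7.20%, 5.72% to 8.91%). With at least 5 contacts in each group there were 84 at N2 (7.85%, 6.31% to 9.63%) and again 77 at C0, at 0.686 times the C0 depth in N2. Closed triples among these bins numbered 63 at N2 and 4 at C0, and with at least 5 contacts 35 at N2. By chromosome pair at 5 contacts, N2 and C0 had 45 and 47 for chromosomes 3 and 15, and 23 each for chromosomes 9 and 15, while chromosomes 3 and 9 had 16 at N2 (5.56%, 3.21% to 8.87%) and 7 at C0 (2.43%, 0.983% to 4.94%). With the same bins and the same raw count, the numbers were close in the chromosome pairs that include chromosome 15, and the intervals overlap for chromosomes 3 and 9. The same raw count does not level the depth, since 5 contacts are a larger multiple of the expected count at N2. The groups were not compared at equal depth over these bins, so this does not show that they were alike. These bins are known only because they were listed in both groups.

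Among all listed bins without a factor, those on the 3 chromosomes were joined to each other more often than to others. At N2, 157 of 759 such bins lay on chromosomes 3, 9 and 15 (20.7%), and at C0 70 of 200 (35.0%). Of the bin pairs that these bins can form between the 3 chromosomes, 3.87% were listed at N2 (3.46% to 4.31%) and 5.88% at C0 (4.78% to 7.14%). Pairs with 1 bin on these chromosomes and 1 elsewhere were listed at 0.236% at N2 and 0.264% at C0, and pairs with neither at 0.417% and 0.980%. The chromosomes were chosen for their interactions with each other, so the first of these shares was high by choice.

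N2 and C0 shared 35 bin pairs, which is 9.78% of the N2 interactions (6.91% to 13.3%) and 20% of those at C0 (14.3% to 26.7%). By chromosome pair these were 23 between chromosomes 3 and 15, 10 between 9 and 15 and 2 between 3 and 9. A single shared pair had usable factors in both groups, chr9:434001-435000 with chr15:526001-527000. It had 5 contacts at N2 and 6 at C0. The contact count was higher at N2 in 15 shared pairs, equal in 7 and lower at N2 in 13, with a median of 6 and sums of 251 at N2 and 244 at C0. Since N2 was shallower, the ratio to the expected count was higher at N2 in 29 of the 35, with a median of 205 at N2 and 141 at C0. Within 1 bin, 51 interactions of N2 had a match at C0 and 47 of C0 had a match at N2, and within 5 bins 79 and 74. Bins were shared more than bin pairs, with 84 bins in both lists, 44.9% of the N2 bins and 52.5% of those at C0. No bin pair of N1 was listed in another group.

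**Figure D5:**
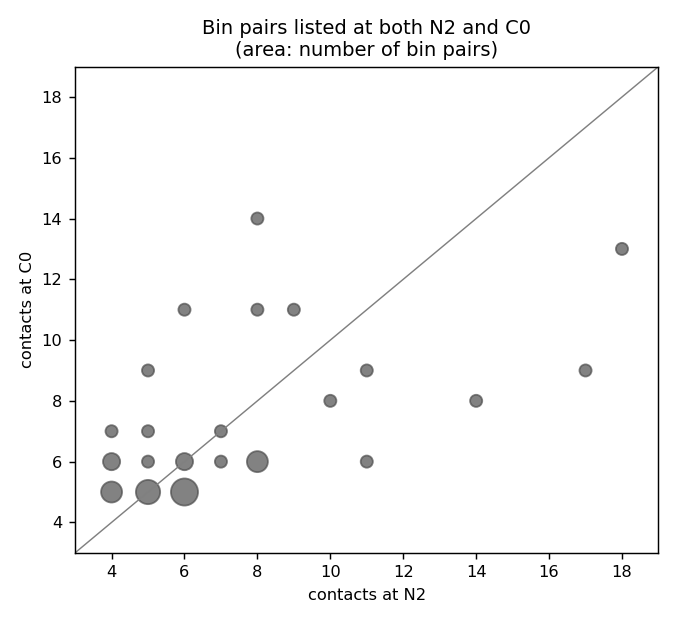
Contacts at N2 (horizontal axis) and at C0 (vertical axis) of the 35 bin pairs listed in both groups, with the area of a point proportional to the number of bin pairs at that place and a grey line where both counts are equal. Points lie on both sides of the line, 15 bin pairs below it with more contacts at N2 and 13 above it with more at C0.

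The windows were not rich in cis-interactions. The choice of chromosomes did not use the cis lists. The windows, however, were placed mostly on pairs without a factor, whose bins had no cis-interaction in the same group. At N2 they held 11.3 cis-interactions per 100 kb (8.80 to 14.4) inside and 17.7 outside on the same chromosomes (16.3 to 19.2). At C0 there were 12.8 inside (10.1 to 16.0) and 15.1 outside (13.8 to 16.4), and at N1 2.00 and 2.98. Over 10 kb in length were 5 of 68 inside at N2 (7.35%, 2.43% to 16.3%) and 26.1% outside (22.6% to 29.9%), and at C0 7 of 77 inside (9.09%, 3.73% to 17.8%) and 19.01% outside (15.7% to 22.7%). Over the 3 chromosomes together, both the density and the share of long contacts at N2 were thus lower inside, with intervals that do not overlap. At C0 the intervals overlap. Inside means both bins in a 200-kb window, so no contact longer than the window could count there. Contacts crossing a window edge counted in neither part, and of 676 at N2, 68 were inside and 593 outside. The lower share of long contacts inside was therefore partly set by the definition, and it is a description and no test. The chromosomes differed among themselves. Chromosome 3 had 15 inside and 18.99 outside at N2, and at C0 10 inside (6.11 to 15.4) and 18.0 outside (15.9 to 20.3), which do not overlap. Chromosome 9 had 10.5 inside and 16.6 outside at N2, and 15.5 and 13.9 at C0. Chromosome 15 had 8.50 inside and 16.8 outside at N2, and 13 and 11.1 at C0. The median contact count of the cis-interactions was higher inside the windows in every group, being 51, 37 and 50 inside in C0, N1 and N2, against 47, 29 and 40 outside. In no group did a bin without a factor in that group have a cis-interaction. The density inside is therefore not independent of how the windows were placed, and the part of such bins in the lower density was not tested. Of the bins with a usable factor, 35 of 59 at N2 and 43 of 97 at C0 also had a cis-interaction.

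The windows also reached other chromosomes. The chromosomes and windows were chosen for their interactions with each other, so that these outnumber the interactions with other chromosomes follows from the choice. Such interactions numbered 12 in the C0 list, 2 in the N1 list and 52 in the N2 list. Of all trans-interactions of the windows they made up 6.70% at C0 (3.51% to 11.4%), 40% at N1 (5.27% to 85.3%, 2 of 5) and 14.2% at N2 (10.8% to 18.3%). At N2 49 of the 52 lacked a usable factor and at C0 9 of the 12. They spread over 15 chromosomes at N2, with chromosome 2 leading at 15, and over 10 at C0, with chromosome 2 leading at 3. Contact counts were 4 to 7 at N2 and 4 to 6 at C0, below the leading counts among chromosomes 3, 9 and 15. In 50 of the 52 at N2 and 10 of the 12 at C0, the window bin also joined another of the 3 chromosomes.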

How the data were processed

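Hi-C lists of 6 libraries, 2 replicates in each of C0, N1 and N2, were analysed. The study's methods describe read filtering in Trimmomatic 0.39, mapping to the IMET1 genome and selection of valid pairs with the ICE package, and pooling of the replicates. Significant bin pairs came from Fit-Hi-C 2.0.8, with more than 2 contacts and p and q below 0.01. The methods state 10-kb bins, while the lists hold 1-kb bins. HiC-Pro and edgeR are named in the submitters' processing notes. The authors deposited for each bin pair a raw contact count without scaling. Its p-value and q-value were deposited as the authors' program gave them. The bias factor of each bin is a deposited score, -1 where none was usable. Cis lists gave the cis-interactions and chromosome lengths, read as the highest position of a chromosome over the lists. The authors' lists of shared interactions were not used.

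Expected counts were recovered as the Poisson mean whose upper tail at the count equals the p-value (numpy 2.4.6, pandas 2.3.3 and scipy 1.17.1 in Python 3.11.15), after tests on simulated data. No p-value was used between groups. Chromosomes, lists and items were chosen with earlier results of these data known. Items named were the 5 bin pairs with the highest count in C0 and N2 with ties, all of N1, the shared pairs with the 5 highest sums, the 5 bins with the most partners, the 3 leading closed triples and the densest windows. Other bins named were chosen after their values were seen.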

Additional observations from a re-analysis of the deposited data

How the results depend on the processing

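Of 69 alternative values, 30 stayed within their limits and 39 moved. The number of interactions was 42 at N2 and 80 at C0 with usable factors only, and 0 at N1 and 95 at C0 without a factor. It was 143 at N2 and 77 at C0 over bins without a factor in both. Contacts scaled to N1, at least 3, left 50 at N2 and 6 at C0. A q-value below 0.001 kept 124, 0 and 169 interactions in C0, N1 and N2, and at least 5 contacts kept 153, 1 and 180, so that N2 and C0 were closer under both than at 358 and 175. The usable share at C0, 45.7%, was 23.4% and 37.9% under these 2 settings. Bin ends in windows over the 3 chromosomes, 73.7% at N2 and 86.0% at C0, were 46.1% and 65.1% with windows of 100 kb, 84.2% and 94.3% with 300 kb, 52.9% and 76.9% with each bin counted once, and 91.3% at C0 with usable factors. Closed triples were 0 at N2 and C0 with usable factors, 62 at N2 with at least 5 contacts, 63 at N2 over bins without a factor in both, and 15 and 34 at C0 with bins merged to 5 and 10 kb. Bins with partners on both other chromosomes were 11 at N2 and 24 at C0 with usable factors, 41 and 19 over bins without a factor in both, and 44 at N2 with at least 5 contacts. The median ratio to expected was 101 at N2 and 83.2 at C0 with usable factors, and 171 at N2 with at least 5 contacts. With windows of 100 kb, interactions with other chromosomes were 26 at N2 and 7 at C0. Shared bin pairs were 79 within 5 bins and 1 with usable factors. The cause was not tested, apart from settings that keep fewer pairs by construction. Settings on bins without a factor in both groups, and closed triples with at least 5 contacts, were added after seeing the data. No paired analysis was possible because the replicates of each group are pooled in its list, and for the same reason no replicate could be left out. Depth limits N1 most: its 3 interactions cannot be ranked against the other groups.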
